A study of Mus musculus with 8 samples.

Results

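Tdpoz1, Tdpoz2, Tdpoz3, Tdpoz4 and Tdpoz5 form a run of small genes on mouse chromosome 3, taken here by symbol from a RefSeq gene table of mm10 (GRCm38.p6). They are 5 of its 21887 protein-coding genes. The interval described is chr3:93601542-94011314, which reaches from 50 kb left of the first member to 50 kb right of the last, 409.8 kb in all, and is called the Tdpoz window. It held 16 of the 48730 open regions listed for Ubc9-depleted cells, 6 of 46847 for Ubc9 control cells, 12 of 58039 for H1 triple-knockout cells and 9 of 55489 for H1 wild-type cells.

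ATAC-seq, in which a transposase cuts and tags accessible DNA, was run on 8 samples of mouse embryonic stem cells, 2 replicates for each of 4 groups. Ubc9-depleted cells (line v6.5, a TET-OFF design, 72 hours of doxycycline) were set against Ubc9 control cells of the same line, for which the labels mention no doxycycline, so drug and depletion cannot be told apart. Cells without 3 linker histones (the H1 triple knockout, genotype H1.2-/-H1.3-/-H1.4-/-) were set against H1-WT cells, both lines coming from an earlier publication. All groups were grown for 4 passages in 2i/LIF medium. Each group has 1 deposited list of regions, made from both of its replicates. There is no spread between replicates to set a difference against, so every comparison is a description of these lists, without a p-value, and how deeply each list was sequenced is unknown.

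Tdpoz genes encode short proteins that pair a TRAF-like (MATH) domain with a POZ (BTB) domain, the layout of SPOP, a substrate adaptor of cullin-3 ubiquitin ligases. In the mouse they form a multicopy family whose transcripts are known from the earliest cleavage stages of the embryo, and Tdpoz1 carries the synonym 2cpoz56 in the gene table. Ubc9 is the enzyme that conjugates SUMO to its targets, a modification linked to gene silencing, and linker histone H1 binds nucleosomes and compacts chromatin.

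From the left, the members are Tdpoz2 (chr3:93651542-93652686), Tdpoz1 (chr3:93669333-93676283, minus strand), Tdpoz4 (chr3:93796398-93797510, plus strand), Tdpoz3 (chr3:93826020-93827117) and Tdpoz5 (chr3:93960292-93961314, minus strand). The strands of Tdpoz2 and Tdpoz3 were not in the tables used here. Tdpoz1 spans 6951 bp, and the other members span between 1023 bp (Tdpoz5) and 1145 bp (Tdpoz2). The window holds 11 further genes, all 11 predicted pseudogenes, and no other protein-coding gene.

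The family is built of near-copies, and the promoters show it. RefSeq promoter sequences of GRCm38.p6 were available for 3 members (Tdpoz1, Tdpoz4 and Tdpoz5). The 120 bases before the annotated start of Tdpoz1 (chr3:93676284-93676403, minus strand) and of its relative Tdpoz9 (chr3:94054886-94055005, minus strand), which lies to the right of the window, are printed 5′ to 3′ to show the TATA-like run TATATAA, in capitals.
Tdpoz1: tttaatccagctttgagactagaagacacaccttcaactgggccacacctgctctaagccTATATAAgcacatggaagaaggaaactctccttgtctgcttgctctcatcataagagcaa
Tdpoz9: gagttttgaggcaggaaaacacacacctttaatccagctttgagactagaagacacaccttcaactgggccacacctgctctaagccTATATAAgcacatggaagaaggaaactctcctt
The stretches are shifted against each other because the annotated starts differ. Aligned over 273 columns, the Tdpoz1 and Tdpoz9 promoters differ at 1. The next 4 sequences show how little separates Tdpoz5 (chr3:93961315-93961434, minus strand) from Tdpoz7 (chr3:94072645-94072764, minus strand), and Tdpoz4 (chr3:93796278-93796397, plus strand) from the second start of Tdpoz8 (chr3:93073401-93073520, plus strand). Capitals mark the bases at which each differs from its partner in an alignment of the promoters.
Tdpoz5: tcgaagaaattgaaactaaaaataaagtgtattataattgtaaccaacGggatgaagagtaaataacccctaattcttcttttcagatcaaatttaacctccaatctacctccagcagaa
Tdpoz7: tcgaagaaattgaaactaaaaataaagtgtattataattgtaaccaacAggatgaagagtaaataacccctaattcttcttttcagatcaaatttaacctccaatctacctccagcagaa
Tdpoz4: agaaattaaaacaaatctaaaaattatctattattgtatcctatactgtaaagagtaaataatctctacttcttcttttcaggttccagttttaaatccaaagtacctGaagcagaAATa
Tdpoz8 start 2: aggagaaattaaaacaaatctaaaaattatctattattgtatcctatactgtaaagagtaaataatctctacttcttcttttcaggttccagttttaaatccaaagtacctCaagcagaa
The whole promoters of Tdpoz5 and Tdpoz7 differ at 1 of 300 positions, and those of Tdpoz4 and Tdpoz8 start 2 at 18 of 300. Among the members themselves the stretches are less alike, with 65.8% identity between Tdpoz4 and Tdpoz5, 48.1% between Tdpoz1 and Tdpoz5 and 45.2% between Tdpoz1 and Tdpoz4. The annotated starts may not be of 1 kind. The first start of Tdpoz8 had 84.4% identity with Tdpoz1 and its second start 94.0% with Tdpoz4, but these 2 starts of the same gene had only 46.6%. The low values between members therefore do not measure how far corresponding promoters differ. Reads from such copies may not be told apart, and no source used here says how the authors placed reads that fit several copies, so a region or its absence inside a copied stretch is uncertain.

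No member had an open region close to its annotated ends, in any group. In all 4 lists, 0 of the 5 members had a region within 1000 bp of either annotated end or over the gene body. With 5000 bp, 1 member had one in depleted cells (Tdpoz3) and 1 in knockout cells (Tdpoz4). Whether the annotated ends are the ones in use was not tested. Over all protein-coding genes, 54.4% had such a gene-end region in Ubc9-depleted cells, 53.1% in Ubc9 control cells, 51.4% in H1 triple-knockout cells and 51.7% in H1 wild-type cells. Genes without one in any list made up 37.8%, a state of 8280 genes with the members included. Genes with a gene-end region in depleted but not in control cells made up 5.29%, and those with one in control but not in depleted cells 4.02%. In the H1 pair the shares were 4.45% for knockout but not wild-type cells and 4.78% for wild-type but not knockout cells. No member was in any of these 4 classes.

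The distance to the nearest region differed by member. Tdpoz3 lay 4.96 kb from its nearest region in Ubc9-depleted cells, against 12.37 kb in Ubc9 control cells, and 12.34 kb in H1 triple-knockout cells against 12.41 kb in H1 wild-type cells. The near region in depleted cells is chr3:93820699-93821055, with the low score 56.4. Tdpoz4 lay 15.73 kb from a region in depleted cells, against 15.82 kb in control cells, and 3.83 kb in knockout cells against 15.84 kb in wild-type cells. Tdpoz4 thus had its nearest region in knockout cells, at chr3:93801344-93801558 with a score of 88.2. Tdpoz2 lay 31.07 kb from a region in depleted cells, against 41.73 kb in control cells, and 41.79 kb in knockout cells against 31.06 kb in wild-type cells. Tdpoz1 and Tdpoz5 kept the same nearest region in every list: it lay between 18.13 and 18.23 kb from Tdpoz1 and between 8.42 and 8.56 kb from Tdpoz5.

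**Figure D1:**
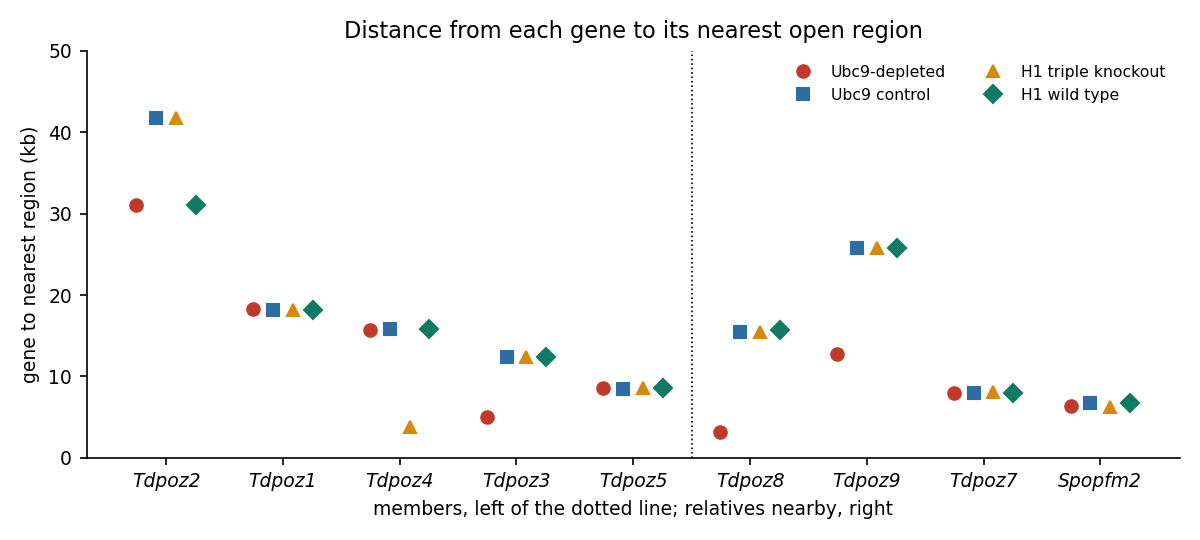
Distance in kb from each gene to its nearest open region in the 4 lists, Ubc9-depleted and control cells first and then H1 knockout and wild-type cells (1 list each, no error), members left of the dotted line and nearby relatives right of it. Tdpoz3 stands apart in depleted cells (4.96 kb) and Tdpoz4 in knockout cells (3.83 kb), while Tdpoz1 and Tdpoz5 have 4 nearly equal points.

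Depleted cells were set against control cells to ask what the loss of SUMO conjugation does to open chromatin. In the Tdpoz window the depleted list held 16 regions covering 7035 bp, 1.72% of the window, and the control list 6 regions covering 2451 bp, 0.598%. The whole depleted list also covered more of the genome, 26.8 Mb against 21.7 Mb for the control list. A region was called shared when it overlapped a region of the other list of its pair by at least 1 bp. In the depleted list 12 of the 16 regions had no partner, 75.0% (exact 95% interval 47.6 to 92.7, counting error only), where 45.6% of that whole list and 46.9% of its regions on chromosome 3 outside the window had none. In the control list 2 of 6 had no partner, 33.3% (4.33 to 77.7), where 43.3% of the whole list and 46.5% of chromosome 3 outside the window had none. The 12 depleted-only regions thus faced 2 control-only regions.

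**Figure D2:**
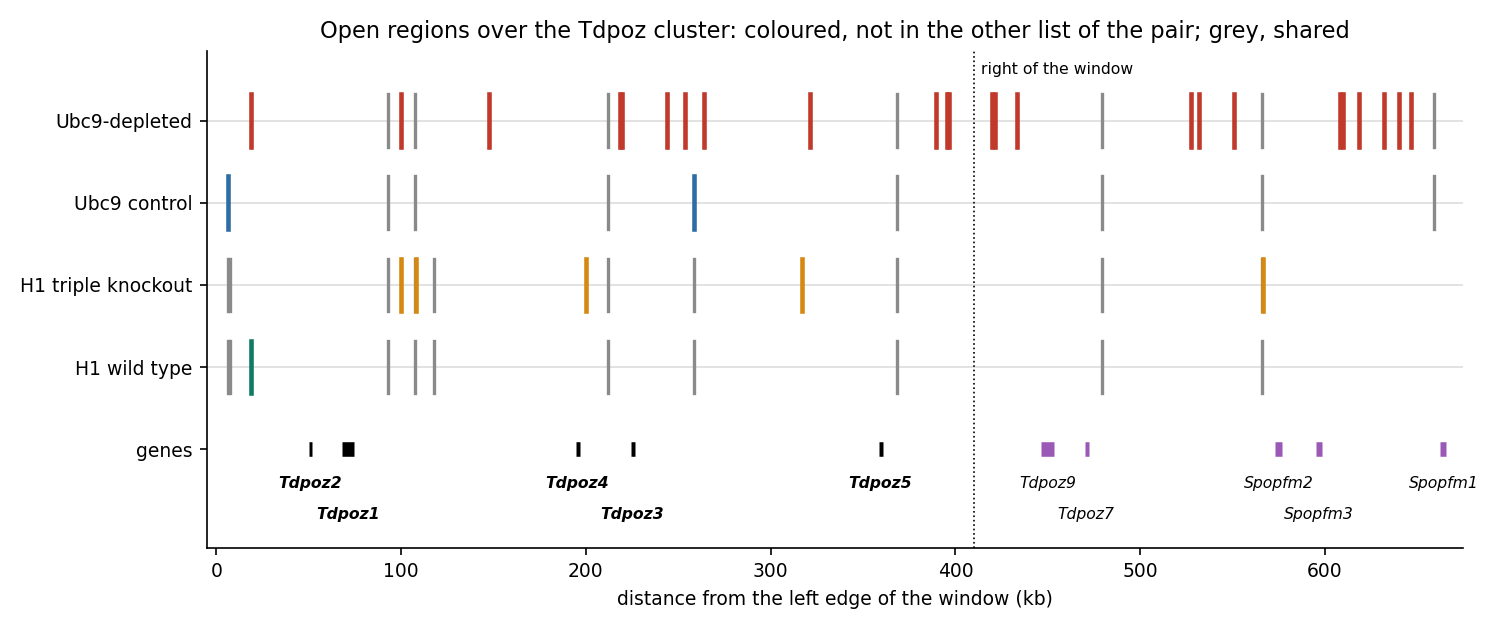
Open regions of the 4 lists along the Tdpoz window and on to Spopfm1, by distance in kb from the left edge of the window; coloured bars have no partner in the other list of their pair, grey bars are shared, black blocks are the members and purple blocks their relatives. The 12 coloured bars of depleted cells inside the window spread over both flanks and the gaps between Tdpoz1, Tdpoz4, Tdpoz3 and Tdpoz5, against 2 in control cells.

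**Figure D3:**
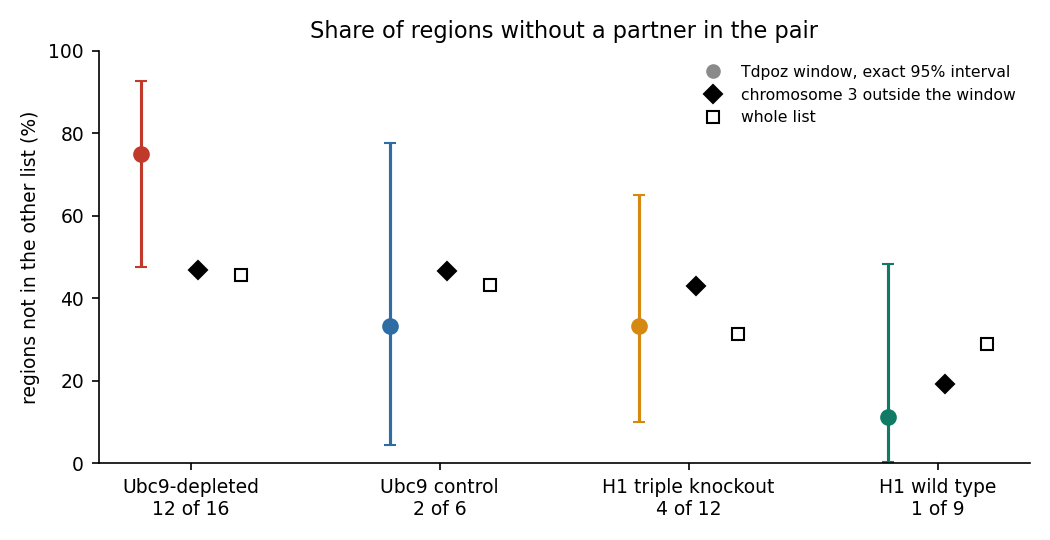
Percent of regions without a partner in the other list of the pair, for the Tdpoz window (circle, with its exact 95% interval), chromosome 3 outside the window (diamond) and the whole list (square). The depleted interval (47.6 to 92.7) begins just above both backgrounds, and the other 3 intervals contain theirs. Each interval takes regions as independent, but 4 of the 12 depleted-only regions lie less than 2 kb from another. The small gap to the backgrounds therefore decides nothing.

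The same counts were taken in 6631 tiles of the window's length laid across the genome. In 1.07% of tiles the depleted list had 12 or more regions without a partner, and on chromosome 3 in 1.79%. The tile median was 3 and the highest tile had 23. Regions of any kind were less exceptional: 7.60% of tiles held 16 or more depleted regions. The depleted-only count exceeded the control-only count by 10, and 1.04% of tiles (2.05% on chromosome 3) had an excess as large. The control count was an ordinary one, as 51.0% of tiles held 6 or more control regions and 63.5% held 2 or more control-only regions. With a score of at least 100, a limit under which 5 depleted-only regions and 1 control-only region remained in the window, 7.84% of tiles had as many depleted-only regions. Part of the surplus therefore lay in low-scoring regions.

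**Figure D4:**
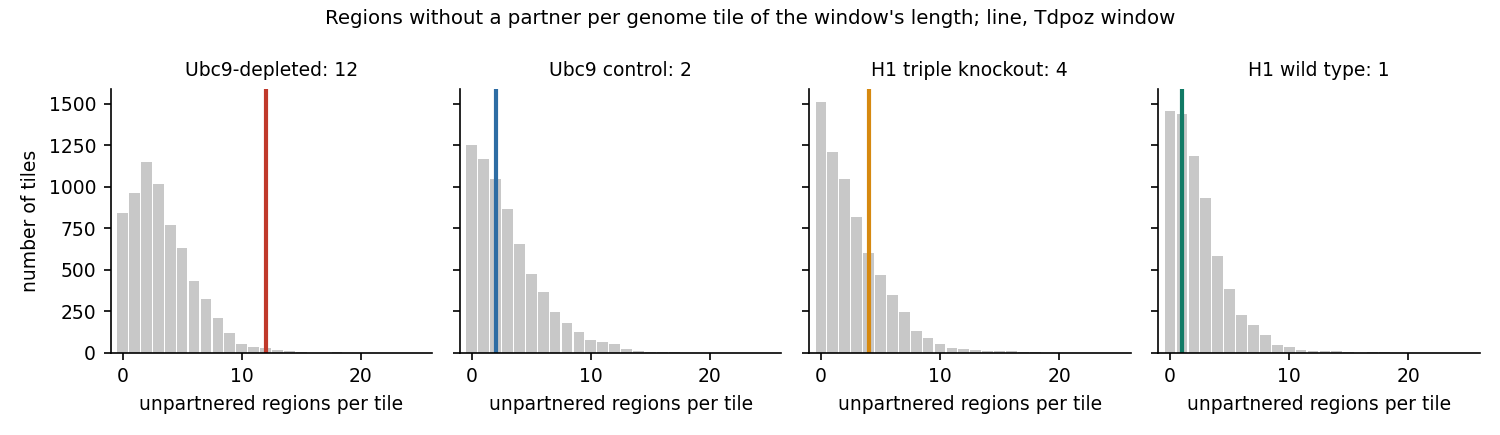
Number of genome tiles of 409.8 kb by how many regions without a partner each holds, for the 4 lists; the coloured line is the Tdpoz window. The window lies far to the right for depleted cells (12 regions) and within the bulk of the tiles for control cells (2), knockout cells (4) and wild-type cells (1).

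The depleted-only regions were spread over the cluster. Between Tdpoz1 and Tdpoz4, over 120.1 kb, 4 depleted regions (2 without a partner) stood against 2 in control cells, both shared. Between Tdpoz4 and Tdpoz3 the counts were 3 in depleted cells (2 without a partner) and 1 in control cells, which was shared. In the 133.2 kb between Tdpoz3 and Tdpoz5 the depleted list had 4 regions, none with a partner, and the control list 1, also without one. The 50 kb right of Tdpoz5 held 4 depleted regions (3 without a partner) and 1 shared control region. The left flank had 1 depleted-only and 1 control-only region, and the 16.6 kb between Tdpoz2 and Tdpoz1 had no region in any of the 4 lists.

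Counted around each member, with 50 kb on each side, Tdpoz3 had 5 depleted-only regions against 1 control-only, Tdpoz4 and Tdpoz5 each had 4 against 0, Tdpoz1 had 2 against 0 and Tdpoz2 had 2 against 1. All 5 members therefore had more depleted-only than control-only regions nearby, which was so for 36.4% of protein-coding genes, while 38.2% had the reverse. The windows of neighbouring members overlap and share regions, so the 5 counts are not independent.

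The 2 highest-scoring depleted-only regions lay far from any gene end. The first, chr3:93748970-93749465, had a score of 225.6, above 75.0% of the depleted list, and stood 46.93 kb from Tdpoz4, with the pseudogene Gm5852 nearer at 19.24 kb. The second, chr3:93845057-93845627, had a score of 220.4, above 74.4% of the list, and stood 17.94 kb from Tdpoz3. The score is the authors' value for each region. It was taken to be a p-value on a scale of minus 10 times log10, with a lowest value of 50, and it ranks regions within a list only.

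The other 3 to pass a score of 100 were chr3:93990646-93991028 (145.5), chr3:93922185-93922945 (131.1) and chr3:93865038-93865403 (126.8). The remaining 7 scored between 52.0 and 92.1. As a group the 12 had a median score of 92.1, below the 105.6 of all depleted-only regions of the genome and the 128.4 of the whole depleted list. None of the 43 regions of the window, in any list, overlapped an annotated gene or pseudogene. These regions merge into only 22 intervals, and the overlap to be awaited from the length of the genes was not computed. Placement inside the gene copies is also uncertain, so the count shows no avoidance of genes.

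**Figure D5:**
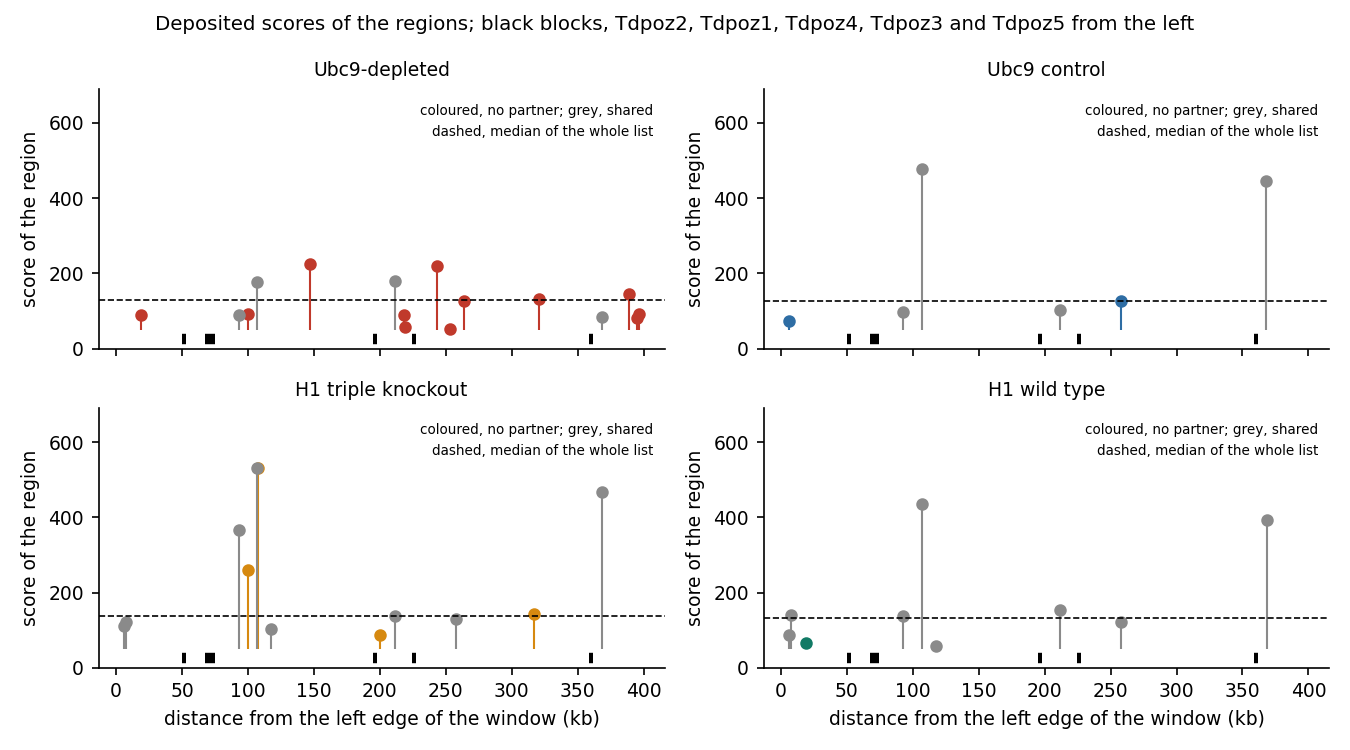
Deposited score of each region of the window by distance in kb from its left edge, in 1 panel per list; coloured points have no partner in the pair, grey points are shared, the dashed line is the median score of the whole list and lines start at the lowest deposited score, 50. In depleted cells 4 of the 12 coloured points lie above the dashed line (128.4), the highest at 225.6.

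Some depleted-only regions came in neighbouring pairs, a feature picked out after it was seen. Of the 12, 4 lay less than 2 kb from another: chr3:93819849-93820283 with chr3:93820699-93821055, 415 bp apart and left of Tdpoz3, and chr3:93996521-93996922 with chr3:93997959-93998451, 1036 bp apart and right of Tdpoz5. The share was 33.3% (9.92 to 65.1), where 8.14% of depleted-only regions in the genome and 7.96% on chromosome 3 had such a neighbour. Close neighbours are more frequent where regions are dense, and the window held 12 depleted-only regions against a tile median of 3. The shares are therefore not a like background, and pairing beyond this density was not tested. Whether the paired regions are parts of 1 broader site was not tested.

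Across all 4 lists the regions of the window merged into 22 intervals. Depleted cells held 16 of them, and 10 were in the depleted list alone. Of the 12 depleted-only regions, 2 had a counterpart in an H1 list, 16.7% (2.09 to 48.4), near the 16.2% of depleted-only regions genome-wide. The first, chr3:93701389-93701646 in depleted cells (score 92.0), overlapped chr3:93701338-93701810 in H1 triple-knockout cells (score 260.8) and lay 25.11 kb from Tdpoz1. It was the only interval of the window present in both the depleted and the knockout list and in neither control. The second, chr3:93620198-93620470 (score 89.7), overlapped a region of the H1 wild-type list (65.4).

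The 2 control-only regions were chr3:93607882-93608030 (score 74.3) and chr3:93859703-93859890 (score 127.5). Both were also present in the lists of H1 knockout and wild-type cells, so the depleted list was the one without them. Genome-wide, 75.8% of control-only regions had a counterpart in an H1 list.

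In all, 4 intervals were open in every list. The strongest in 3 of the 4 lists, between Tdpoz1 and Tdpoz4 at chr3:93708776-93709642 in depleted cells, had a score of 177.6 there and 477.0 in control cells, and 531.5 in knockout and 435.9 in wild-type cells. That placed it above 66.1% of the depleted list, 95.5% of the control list, 96.1% of the knockout list and 93.4% of the wild-type list. It stands 0.51 kb from the pseudogene Gm18433 in depleted cells and 32.49 kb from Tdpoz1.

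The interval nearest Tdpoz5, chr3:93969879-93970197 in depleted cells, scored 84.4 there and 444.6 in control cells, and 467.7 in knockout and 394.2 in wild-type cells. It ranked above 22.7% of the depleted list, 94.6% of the control list, 94.5% of the knockout list and 91.7% of the wild-type list. The interval left of Tdpoz3, chr3:93813236-93813731 in depleted cells, had the opposite order within the Ubc9 pair, above 66.4% of the depleted and 35.6% of the control list, and above 49.4% of the knockout and 58.9% of the wild-type list.

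The interval nearest Tdpoz1, chr3:93694517-93694802 in depleted cells, was low in the Ubc9 pair, above 25.9% of the depleted and 31.2% of the control list, and higher in the H1 pair, above 89.9% of the knockout and 52.4% of the wild-type list. Ranks from lists of different length and depth show no change in accessibility by themselves. The interval between Tdpoz1 and Tdpoz4 and the one nearest Tdpoz5 stood at nearly the same place in the control, knockout and wild-type lists and lower in the depleted list.

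Knockout cells were set against wild-type cells to ask the same of linker histone loss. Within the window the knockout list held 12 regions covering 3927 bp, 0.958%, and the wild-type list 9 regions covering 2480 bp, 0.605%. The whole knockout list covered 17.3 Mb and the whole wild-type list 17.5 Mb. Of the knockout regions 4 had no partner, 33.3% (9.92 to 65.1), where 31.4% of that whole list and 42.9% of chromosome 3 outside the window had none. With regions within 100 bp joined, the knockout list had 11 regions in the window, 3 of them without a partner. Of the wild-type regions 1 had no partner, 11.1% (0.281 to 48.2), where 28.8% of the whole list and 19.1% of chromosome 3 outside the window had none.

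The knockout surplus over the window was an ordinary one for its chromosome. As many regions of any kind were held by 30.3% of tiles for the knockout list and 40.3% for the wild-type list. At least 4 knockout-only regions were present in 30.8% of all tiles and in 57.4% of the chromosome 3 tiles, whose median was 4. At least 1 wild-type-only region was present in 78.1% of all tiles and 73.3% of the chromosome 3 tiles. The excess of knockout-only over wild-type-only regions was 3, reached by 19.0% of all tiles and 54.9% of those on chromosome 3. With regions within 100 bp joined, the excess in the window was 2. Tdpoz1, Tdpoz3, Tdpoz4 and Tdpoz5 each had more knockout-only than wild-type-only regions within 50 kb, and Tdpoz2 had 1 of each. On chromosome 3 78.0% of protein-coding genes had more knockout-only regions nearby, against 39.9% in the genome. The part of this chromosome-wide imbalance in the counts of the window was not tested.

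The 4 knockout-only regions were of unequal kind. Besides chr3:93701338-93701810, described above, chr3:93918357-93918720 (score 142.1) lay 41.57 kb from Tdpoz5 and chr3:93801344-93801558 (score 88.2) lay 3.83 kb from Tdpoz4, and both were in the knockout list alone. The fourth, chr3:93709328-93709655, carries the same score (531.5) as its neighbour chr3:93708795-93709292, which is shared with wild-type cells, so it reads as a second piece of 1 peak. The wild-type-only region, chr3:93620304-93620483, had a score of 65.4 and lay 31.06 kb from Tdpoz2.

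The relatives to the right of the window continued the pattern of the Ubc9 pair. This stretch, chr3:94011315-94267176, was chosen after the regions had been seen and holds Tdpoz9, Tdpoz7, Spopfm2, Spopfm3 and Spopfm1, which belong to the same TRAF-POZ family. In its 255.9 kb the depleted list had 15 regions, 12 without a partner, 80.0% (51.9 to 95.7), and the control list 3, all shared. Without a partner were 45.6% of the whole depleted list and 46.9% of its regions on chromosome 3 outside the window. The H1 triple-knockout list had 3 regions there, 1 of them without a partner, and the wild-type list 2, both shared. The 12 depleted-only regions were in the depleted list alone and reached scores of 188.5 (chr3:94034421-94035189) and 182.4 (chr3:94133269-94133939). With these, 8 of 24 depleted-only regions from the left edge of the window to Spopfm1 lay less than 2 kb from another, 33.3% (15.6 to 55.3). Genome-wide 8.14% did so, which is not a like background for a stretch so dense in depleted-only regions.

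Tdpoz5 and Tdpoz7, whose promoters are near-copies, lay at similar distances from their nearest region. Tdpoz7 lay 8.0 kb from a region in depleted cells, against 7.98 kb in control cells, and 8.03 kb in knockout cells against 7.98 kb in wild-type cells, close to the distances of Tdpoz5. The region beside Tdpoz7, chr3:94080648-94081461 in depleted cells, was also present in all 4 lists, above 53.5% of the depleted, 93.4% of the control, 92.4% of the knockout and 87.1% of the wild-type list. In the depleted list its rank was higher than that of the region nearest Tdpoz5, which stood above 22.7%. Tdpoz1 and Tdpoz9, whose promoters are near-copies, differed in distance. Tdpoz9 lay 12.79 kb from a region in depleted cells, against 25.74 kb in control cells, and 25.79 kb in knockout against 25.74 kb in wild-type cells. Tdpoz8, further left on the chromosome, lay 3.18 kb from a region in depleted cells, against 15.43 kb in control cells, and 15.45 kb in knockout against 15.72 kb in wild-type cells.

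Outside the multicopy group the family looked different. Spop and Spopl, the widely expressed adaptors, had a gene-end region in all 4 lists, and so did Cul3, the cullin of the ligase, and Rbx1, its RING subunit. The highest gene-end score of Spop was 271.9 in depleted and 138.1 in control cells, and 136.2 in knockout and 108.9 in wild-type cells. That of Spopl was 175.7 in depleted and 164.5 in control cells, and 368.0 in knockout and 202.7 in wild-type cells. These scores rank regions within a list and show no change between lists. Thus 2 of the 8 relatives outside the window had a gene-end region in each list, Spop and Spopl, and the 6 multicopy relatives had none.

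The members' promoters, meaning here the stretches at their annotated starts, had few CG dinucleotides. As these starts may not be of 1 kind, whether each stretch is a promoter in use was not tested. Tdpoz4 had 0 in 300 bases, Tdpoz1 had 1 and Tdpoz5 had 4, and the median over all 32851 promoters of the table was 7. Relative to base composition, the observed over expected ratio of CG was 0.0811 for Tdpoz1, 0 for Tdpoz4 and 0.424 for Tdpoz5, and the median was 0.384, so Tdpoz5 lay above it. The GC content was 41.3% for Tdpoz1, 36.7% for Tdpoz4 and 35.7% for Tdpoz5, below the median of 52.7%. Of 5 motifs searched on both strands in the 8 promoter entries of the family, the TATA box TATAAA was in 0 (13.6% of all promoters hold it), the GC box GGGCGG in 0 (35.7%) and the E box CACGTG in 0 (7.15%). The CCAAT box was in Tdpoz1 and Tdpoz5 and not in Tdpoz4 (37.4% of all). TAATCC, the core bound by Otx-type homeodomains, was in Tdpoz1 and in its relatives Tdpoz9, Spopfm2 and the first start of Tdpoz8 (7.06% of all). The run TATATAA, added after the sequences had been seen, was in the same 4 entries, shown above for Tdpoz1 and Tdpoz9, and in 3.24% of all promoters. A match is a description of letters, the 4 entries are related copies, and no region of any list lay over these promoters.

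For comparison, 2 other multicopy families with known transcripts in early embryos were counted in the same way. In the windows of the 9 Zscan4 genes, which encode zinc-finger proteins, 45 of 57 depleted regions had no partner, 78.9% (66.1 to 88.6), against 7 of 19 control regions, 36.8%. In the window of the 51 Obox genes, which encode homeodomain proteins, the counts were 34 of 40 depleted regions, 85.0% (70.2 to 94.3), against 3 of 9 control regions, 33.3%. Over the whole lists, 45.6% of depleted and 43.3% of control regions had none. Per 100 kb the Tdpoz window had 2.93 depleted-only regions, the Zscan4 windows 5.20 and the Obox window 2.39. In the H1 pair, 4 of 12 knockout regions of the Tdpoz window had no partner. In the Zscan4 windows 3 of 12 had none, and in the Obox window 7 of 11. For wild-type regions the counts were 1 of 9, 13 of 22 and 1 of 5, in the same order. Whole-list shares were 31.4% for knockout and 28.8% for wild-type regions. The windows span 409.8, 865.3 and 1421.7 kb, and knockout-only regions numbered 0.976, 0.347 and 0.492 per 100 kb. The chromosome 3 imbalance described above does not cover the Zscan4 and Obox genes, which lie on chromosome 7. No family difference in the H1 pair was tested. The intervals of the 3 families overlap in depleted cells, and no difference between their shares was tested. Unlike the 5 Tdpoz members, most 2-cell-stage marker genes had regions within 1000 bp of their annotated ends in depleted cells. The counts were 6 of the 7 matched (of 8 named) in depleted cells, and 0 of 7 in control, knockout and wild-type cells. Over all protein-coding genes the shares were 54.4% in depleted, 53.1% in control, 51.4% in knockout and 51.7% in wild-type cells. Those with one in depleted but not in control cells made up 5.29%. Several of these markers are also members of multicopy families, and how well reads can be placed at them or at the Tdpoz members was not tested.

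Markers of other cell states gave other counts. Of 7 embryonic stem cell markers, 5 had a gene-end region in each of the 4 lists. Trophoblast markers had one at 0 of 5 genes in depleted cells against 2 in control cells, and at 2 in knockout against 3 in wild-type cells. Feeder or fibroblast markers had one at 1 of 7 genes in depleted cells against 2 in control cells, and at 2 in both knockout and wild-type cells. Primitive endoderm markers had one at 2 of 5 genes in depleted cells against 3 in control cells, and at 2 in knockout against 1 in wild-type cells. Within 50 kb of the genes, the measure used for the members, embryonic stem cell markers summed to 7 depleted-only and 18 control-only regions, trophoblast markers to 1 and 15, feeder or fibroblast markers to 10 and 14, and primitive endoderm markers to 3 and 7. The 2-cell-stage markers summed to 32 depleted-only and 9 control-only regions. A region near several genes of a list counts more than once in these sums. In the H1 pair the sums were 11 knockout-only and 11 wild-type-only regions for stem cell markers, 5 and 11 for trophoblast, 9 and 6 for feeder or fibroblast, 7 and 7 for primitive endoderm and 6 and 5 for 2-cell-stage markers. In pooled cells, a site open in few cells and a site weakly open in many cannot be told apart. The part of these marker counts in the counts of the Tdpoz window was not tested.

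By the share of bases covered in the 4 lists, the 5 genes whose surroundings (gene plus 50 kb on each side) were nearest to the Tdpoz window, of 21209 compared, were Odf2l, Cln3, Cip2a, Apoh and Lyzl4. Odf2l, also on chromosome 3, differed by 0.129 percentage points (Euclidean distance), with 1.73% covered in depleted and 0.703% in control cells, and 0.921% in knockout and 0.669% in wild-type cells. Lyzl4, the fifth, differed by 0.193 percentage points. The coverage of the Tdpoz window alone is thus matched by single genes elsewhere, whose surroundings are shorter than the window.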

How the data were processed

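Open chromatin was profiled by ATAC-seq in 8 samples of 4 groups. Per the submitters' processing notes, CASAVA 1.8.2, Bowtie2, Picard and MACS 1.4.2-1 were used with mm10. Their settings, the handling of reads that fit several copies, any shift of read ends for the transposase and the read depth are not given in the sources used here. The authors made 1 list from both replicates of each group, per the labels. The deposited score of each region was read as minus 10 times log10 of p, the peak caller's scale, whose lowest value here, 50, stands for a p of 1e-05.

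Members were matched by symbol in a RefSeq table (GRCm38.p6), and named genes were these members, all genes of the window, relatives by symbol, ligase partners, targeted genes and the 5 genes with the most similar coverage. The check of the targeted genes is not reported here. Regions were called shared at 1 bp of overlap, and intervals are exact (Clopper-Pearson, SciPy 1.17.1). The intervals take regions as independent, which close neighbours may not be. Tiles ran from position 1 of each chromosome to its last deposited region, and empty ones were kept. Promoters were aligned with Biopython 1.88 and tables handled with pandas 2.3.3. The overlap count was tested on simulated lists. The members and lists were chosen with earlier results of these data known.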

Additional observations from a re-analysis of the deposited data

How the results depend on the processing

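No paired analysis was possible because each list pools both replicates, and leaving out a replicate could not be run for the same reason. Of 92 values recomputed under other settings, 71 stayed within 1.5 times the reported value and 21 moved further. Some of the 71 were fixed in advance. Gene-end counts of 0 stay 0 under a score minimum, and the wild-type tile share with that minimum asked for at least 0 regions. Among the 71 are 8 depleted-only regions with no flank or 10 kb of it (12 with 50 kb), and 18 knockout regions with 100 kb (12 with 50 kb). Most of the 92 are counts or shares that cannot change sign, and of the 16 differences between lists 0 did. With a score of at least 100, the depleted list kept 7 regions in the window and 5 depleted-only, control-only regions numbered 1 and wild-type-only 0, and the surplus of depleted-only over control-only regions was 4 (10 without the minimum). As many depleted-only regions were then in 7.84% of tiles and as many knockout-only in 15.7%, an alternative added after the data were seen. With equal numbers of top-scoring regions within each pair (30751 and 36837), the depleted list had 7 regions, 5 of them depleted-only. The surplus was then 3, and wild-type-only regions numbered 0. These equal numbers are the control and wild-type regions with a score of at least 100. The setting thus largely repeats that minimum, applied to both lists of a pair, and is not a separate check. With no flank, control-only regions numbered 1, wild-type regions 5 and wild-type-only 0. With 10 kb of flank, control-only regions numbered 1 and wild-type-only 0. With 100 kb of flank, there were 10 control regions, 4 of them control-only, and the surplus of knockout-only over wild-type-only regions was 5 (3 with 50 kb). With 5000 bp at gene ends, 1 member had a region in depleted cells (Tdpoz3) and 1 in knockout cells (Tdpoz4). In these cases the cause was not tested, beyond the removal of low-scoring regions or the change of length that each setting makes. A deeper library yields more regions, depth is unknown, and near-identical copies limit what can be placed here.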
